A study of Homo sapiens with 5 samples.

Results

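The immediate early transcription factors described here are 10 genes, EGR1, EGR2, EGR3, FOS, FOSB, FOSL1, JUN, JUNB, ATF3 and KLF6, chosen by name among the 27992 gene names of a count table. All 10 had a row in both the count table and the TPM table. The RNA came from U2OS, an established osteosarcoma line of human origin, in 5 libraries. The study asked how the level of the transcription factor E2F1 relates to what happens to the cell. One library came from parental U2OS cells without a construct, and 4 from cells carrying pTRIPZ-YFP-ER-E2F1, a doxycycline-inducible E2F1 fused to YFP and to the ligand-binding part of the oestrogen receptor. Flow sorting divided those cells by YFP signal into 4 fractions, named YFP-negative, then YFP-low, then YFP-medium, then YFP-high. Per the labels, all 5 groups, the parental one included, grew in DMEM with 8% serum, with doxycycline at 500 ng/ml over 48 h and then 90 nM OHT (4-hydroxytamoxifen, which activates the fused receptor part) for a further 20 h. The labels describe no acute serum pulse, do not say whether the construct line is 1 clone, and do not say whether the parental cells passed through the sorter. Each group has 1 library, so no difference below has a replicate check and no p-value is given.

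Immediate early genes are transcribed within minutes of a growth factor or stress signal, without new protein synthesis, and many of their mRNAs are short-lived. The signal usually runs through the RAS-ERK cascade to serum response factor (SRF) and its cofactors, which bind CArG boxes in promoters. The EGR proteins are zinc finger activators, FOS and JUN family proteins pair as the AP-1 factor, ATF3 is a stress-induced relative of that group, and KLF6 is a zinc finger factor of the Krüppel-like family.

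Upstream sequences are shown for the genes on which the results turn. EGR1, EGR2 and FOS were called higher at the highest YFP level, and KLF6 had the largest fold decrease there among the 10. Each line gives the 250 bases before a RefSeq transcript start (build GRCh38.p14), 5′ to 3′ on the gene's strand, with capitals marking a match to a motif searched. They lie at chr5:138465229-138465478 (plus strand, EGR1), chr10:62816367-62816616 (minus, EGR2, the most downstream of 3 starts), chr14:75278578-75278827 (plus, FOS) and chr10:3785210-3785459 (minus, KLF6).
EGR1: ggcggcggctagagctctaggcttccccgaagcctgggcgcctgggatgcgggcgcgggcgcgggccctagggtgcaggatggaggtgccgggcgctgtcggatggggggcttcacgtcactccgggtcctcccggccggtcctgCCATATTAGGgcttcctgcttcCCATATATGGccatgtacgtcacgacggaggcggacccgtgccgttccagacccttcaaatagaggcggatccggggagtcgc
EGR2: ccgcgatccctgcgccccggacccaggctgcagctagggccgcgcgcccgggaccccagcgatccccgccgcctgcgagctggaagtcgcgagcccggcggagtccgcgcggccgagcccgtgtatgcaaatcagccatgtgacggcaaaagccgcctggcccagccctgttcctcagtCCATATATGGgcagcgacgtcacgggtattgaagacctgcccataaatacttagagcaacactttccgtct
FOS: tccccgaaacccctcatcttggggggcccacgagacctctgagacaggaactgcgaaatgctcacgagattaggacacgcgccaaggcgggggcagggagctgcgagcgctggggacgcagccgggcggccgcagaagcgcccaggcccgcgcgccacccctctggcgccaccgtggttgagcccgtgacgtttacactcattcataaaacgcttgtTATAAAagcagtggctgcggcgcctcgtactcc
KLF6: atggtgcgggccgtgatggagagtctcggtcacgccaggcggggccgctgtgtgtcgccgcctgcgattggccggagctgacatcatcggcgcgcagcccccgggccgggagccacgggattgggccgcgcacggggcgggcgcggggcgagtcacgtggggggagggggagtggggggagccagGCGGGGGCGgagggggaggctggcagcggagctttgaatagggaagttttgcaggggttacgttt

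The RefSeq table held promoter windows of 300 bases (250 before to 50 after a start) for 8 of the 10 genes, 11 windows in all. The capitals in EGR1 are 2 CArG boxes starting 105 and 83 bases before the start, and EGR2 had 1 starting 71 bases before. None of the other 9 windows held a CArG box, against 1.30% of 34943 promoter windows over all genes. The TATA letters TATAAA occurred in FOS, FOSB, JUNB and 1 ATF3 window, starting 33, 30, 31 and 230 bases before the start, against 11.6% of all windows. An EGR motif (GCGTGGGCG or GCGGGGGCG) occurred in KLF6 only, against 5.76% of all windows. The AP-1 motif TGANTCA, the CRE TGACGTCA and the E2F motifs TTTCCCGC, TTTCGCGC, TTTGCCGC and TTTGGCGC had no match in the 11 windows, against 7.72%, 1.84% and 3.30% of all windows. Both strands were searched. The shares count a window once if it held any of the letters searched for a motif. A match or its absence describes these letters in these windows only. Sequence more than 250 bases before a start was not searched, so a motif missing here may lie farther upstream.

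Each library held 70715003 to 76525158 reads in genes. The gates were matched by E2F1 reads, in which transgene and endogenous copies are not separated. E2F1 stood at 86.1 CPM for parental cells, then 106 CPM for the YFP-negative, 163 CPM for the YFP-low, 361 CPM for the YFP-medium and 996 CPM for the YFP-high fraction. CPM here means reads per 1000000 gene reads after trimmed-mean (TMM) scaling of the libraries. A call, higher or lower, required a ratio of at least 2-fold after adding 0.5 CPM to both levels, and a 95% counting interval of the fold that left out 1. These intervals cover counting error only and treat PCR copies as if each were a separate molecule. The level filter, 1 CPM or more in any library, kept 15109 genes. In bulk RNA, fewer cells making a transcript and less transcript per cell cannot be told apart. Among markers of the osteoblast lineage RUNX2 had 2376 to 4000 reads per library, COL1A1 47955 to 258026 and SP7 0 to 7, while TWIST1 had 0 reads in every library, which allows up to 0.0469 CPM in the shallowest. The leukocyte gene PTPRC had 3 to 47 reads and the endothelial gene PECAM1 0 to 10, whereas the simple-epithelial keratins KRT8 and KRT18 were present at 12792 to 28308 reads. The summed level of the 5 leukocyte markers was 15.6 CPM in YFP-high and 4.47 CPM in YFP-negative, nearly all of it CORO1A. The 5 neuronal markers summed to 128 CPM in YFP-high and 77.6 CPM in YFP-negative, the 4 endothelial ones to 2.33 and 0.803 CPM, the 5 epithelial ones to 454 and 538 CPM and the 10 mesenchymal and osteoblast ones to 2345 and 2658 CPM in those libraries. Among single markers CORO1A, the epithelial gene EPCAM (736 reads in YFP-high and 273 in YFP-negative) and the endothelial gene KDR (120 and 3 reads in those libraries, above the level filter in YFP-high alone) were called higher in YFP-high. The 10 mesenchymal and osteoblast markers, 5 of which reached 1 CPM in each library, summed to 4860 CPM in parental cells. COL1A1 was called lower in every construct-bearing fraction than in parental cells. The part of these markers in the results below was not tested.

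**Figure D1:**
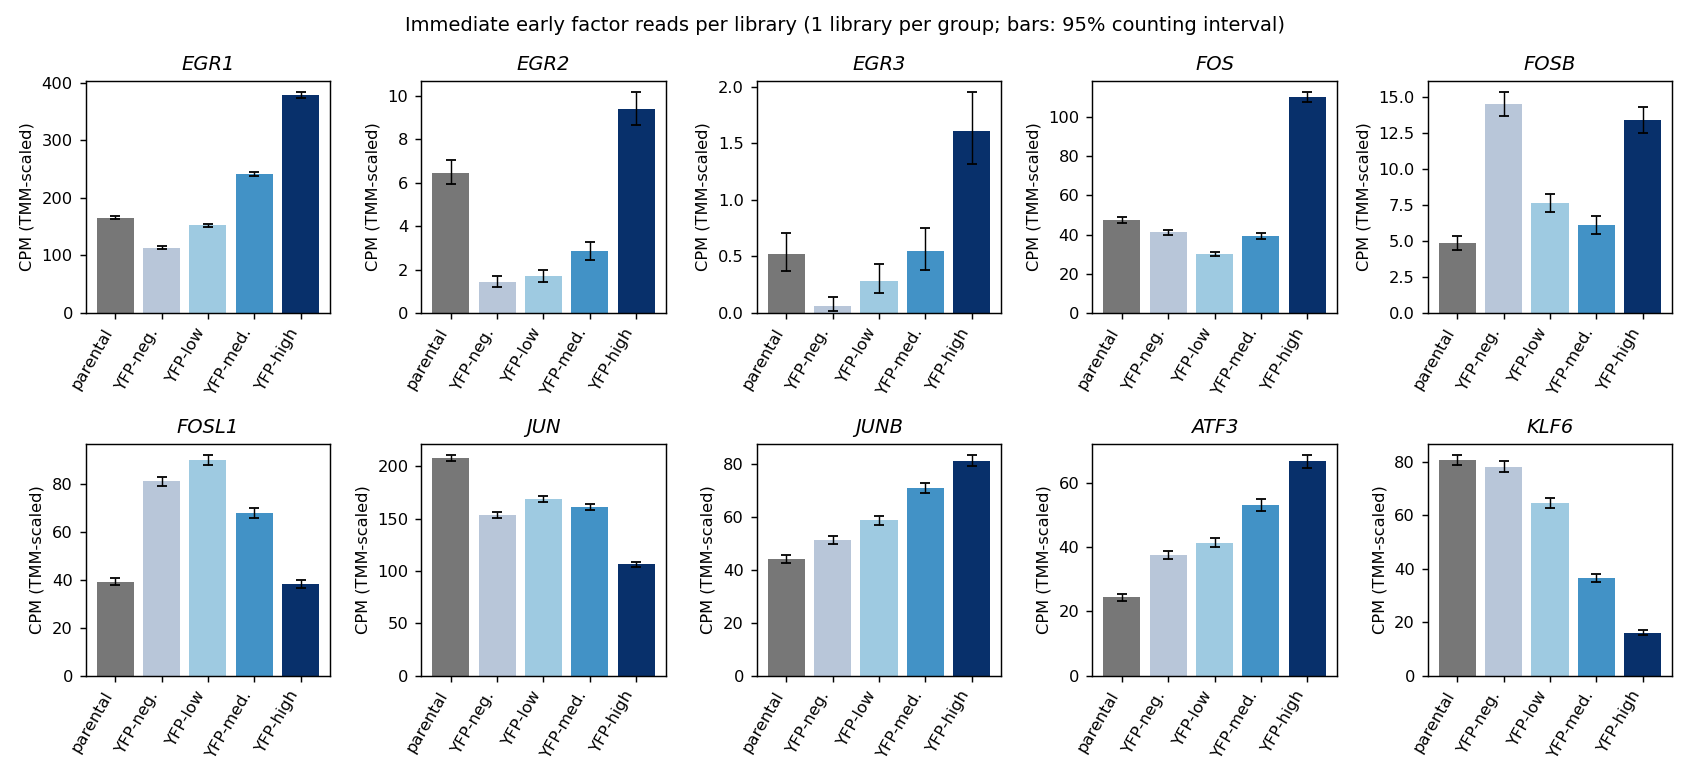
TMM-scaled CPM of each of the 10 factors in the 5 libraries, 1 bar per library with its 95% counting interval, each panel on its own scale from 0. EGR1, EGR2, EGR3, FOS, JUNB and ATF3 stand highest in YFP-high, KLF6 and JUN lowest there, FOSL1 highest in YFP-low and FOSB highest in YFP-negative.

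At the highest YFP level, calls among these factors went in both directions. In YFP-high against YFP-negative 4 of the 10 were called higher, EGR1, EGR2, EGR3 and FOS, and 2 lower, FOSL1 and KLF6. Over all 15109 genes 20.5% were called higher and 11.3% lower in this comparison, which for 10 genes comes to about 2 higher and 1 lower. EGR3 passed the level filter through YFP-high alone, so its level had to be highest there, though the filter does not fix a call. Setting it aside leaves 3 higher and 2 lower among the 9 members above 1 CPM in every library. The all-gene shares, here and below, also cover genes that passed the filter through 1 library. No share was computed for genes above 1 CPM in every library. All shares given are under the main scaling and rule, and none was computed under other settings such as total counts or TPM. The median log2 ratio of the 10 was 0.74 and that of all genes was -0.04. Without EGR3 the middle ratio of the 9 was that of JUNB, 0.66. With total-count scaling the all-gene median moved by -0.26 and the median of the 10 was 0.47. In YFP-low 0 of the 10 were called in either direction, against background shares of 2.11% higher and 0.0463% lower. In YFP-medium EGR1 was called higher, and FOSB and KLF6 lower, against background shares of 9.76% and 2.21%.

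All 3 EGR genes were highest in YFP-high, a position fixed for EGR3 by the level filter. The first step of EGR2 was within counting error, and EGR3 was rare. EGR1, which couples growth factor signals to transcription of growth and matrix genes, had 166 CPM for parental cells, then 113 CPM for the YFP-negative, 152 CPM for the YFP-low, 241 CPM for the YFP-medium and 379 CPM for the YFP-high fraction. Each fraction stood above the one below it with intervals that did not overlap. EGR1 was 1.34-fold higher in YFP-low than in YFP-negative (1.31 to 1.38), 2.13-fold in YFP-medium (2.07 to 2.18) and 3.35-fold in YFP-high (3.27 to 3.43). The YFP-medium call rests on the scaling, since the log2 ratio of 1.09 became 0.87 with total counts and 0.97 with the deposited TPM.

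EGR2, an activator best known from hindbrain patterning and myelination, had 6.47 CPM for parental cells, then 1.44 CPM for the YFP-negative, 1.68 CPM for the YFP-low, 2.85 CPM for the YFP-medium and 9.39 CPM for the YFP-high fraction. It was 6.53-fold higher in YFP-high than in YFP-negative (5.36 to 8.01), most of which lay in the last step, at 3.30-fold for YFP-high against YFP-medium (2.80 to 3.90). YFP-low and YFP-negative differed by less than counting error (1.17-fold, 0.904 to 1.51). The parental library was close to the YFP-high one: against it EGR2 was 1.45-fold higher in YFP-high (1.29 to 1.64), with a log2 ratio of 0.51 that did not pass the rule. The baseline therefore decides the EGR2 call. EGR2 was 4.49-fold lower in YFP-negative than in parental cells (3.68 to 5.53).

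EGR3, a family member induced in neurons and lymphocytes, was rare, with 41 reads for parental cells, then 5 for the YFP-negative, 22 for the YFP-low, 37 for the YFP-medium and 103 for the YFP-high fraction. Its levels were 0.520, 0.0599, 0.284, 0.546 and 1.61 CPM in those libraries. With so few reads in YFP-negative the fold for YFP-high was 26.9 with an interval of 11.2 to 84.6, and the log2 ratio with 0.5 CPM added was 1.92. With 2 CPM added the log2 ratio was 0.81, which ended the call. Against the parental library EGR3 was 3.10-fold higher in YFP-high (2.14 to 4.57). That call ended with total counts, at a log2 ratio of 0.89, and with TPM, at 0.77. The annotation of GENCODE 29 places an antisense transcript over EGR3, and no source used here states the strand setting of the counting, so some of these reads may belong to it.

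The FOS genes took 3 different courses. FOS, the founding partner of JUN in AP-1, had 47.2 CPM for parental cells, then 41.0 CPM for the YFP-negative, 30.1 CPM for the YFP-low, 39.4 CPM for the YFP-medium and 110 CPM for the YFP-high fraction. Only the YFP-high library stood out, at 2.79-fold above YFP-medium (2.67 to 2.92) and 2.68-fold above YFP-negative (2.57 to 2.79). In YFP-low FOS was 1.36-fold below YFP-negative (1.29 to 1.44), under the size of a call.

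FOSB, a paralog of FOS, had 4.84 CPM for parental cells, then 14.5 CPM for the YFP-negative, 7.63 CPM for the YFP-low, 6.09 CPM for the YFP-medium and 13.4 CPM for the YFP-high fraction. The level was thus high at both ends of the sort and low between them. It fell in YFP-medium, 2.38-fold below YFP-negative (2.13 to 2.67), and was 2.20-fold higher in YFP-high than in YFP-medium (1.95 to 2.48). YFP-high and YFP-negative differed by less than counting error, at a fold of 0.924 (0.845 to 1.01). The last step fell short of a call on the TPM scale, at a log2 ratio of 0.99, and with 2 CPM added, at 0.93.

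FOSL1, which encodes FRA1, a FOS relative without the activation domain of FOS that accumulates under sustained ERK signalling, had 39.1 CPM for parental cells, then 80.9 CPM for the YFP-negative, 89.9 CPM for the YFP-low, 67.7 CPM for the YFP-medium and 38.2 CPM for the YFP-high fraction. It was 2.12-fold lower in YFP-high than in YFP-negative (2.02 to 2.22). The same YFP-high level was indistinguishable in counting from the parental one (fold of 0.978, 0.927 to 1.03). The FOSL1 call, like that of EGR2, therefore depends on which library is the baseline.

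JUN and JUNB differed from YFP-negative in opposite directions in YFP-high, both by less than 2-fold. JUN, the main transactivating partner of FOS, had 208 CPM for parental cells, then 153 CPM for the YFP-negative, 169 CPM for the YFP-low, 161 CPM for the YFP-medium and 106 CPM for the YFP-high fraction. JUN was 1.44-fold below YFP-negative in YFP-high (1.40 to 1.48), and 1.95-fold below parental (1.90 to 2.01). The second ratio, -0.96 on the log2 scale, missed the rule but was past it at -1.20 with total counts and at -1.07 with TPM. In YFP-medium against YFP-negative its sign turned with the scaling, from 0.07 to -0.15 with total counts and -0.04 with TPM.

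JUNB, a JUN relative that can dampen JUN activity, had 44.2 CPM for parental cells, then 51.5 CPM for the YFP-negative, 58.8 CPM for the YFP-low, 71.0 CPM for the YFP-medium and 81.4 CPM for the YFP-high fraction. The fold for YFP-high against YFP-negative was 1.58 (1.52 to 1.65), under the size of a call. HOOK2, on the opposite strand, overlaps JUNB in GENCODE 29 and had at most 1155 reads, against 3487 to 5203 for JUNB. Whether reads in the overlap were counted for JUNB, for HOOK2 or left out as ambiguous is not known.

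ATF3, induced by many stresses, had 24.4 CPM for parental cells, then 37.5 CPM for the YFP-negative, 41.4 CPM for the YFP-low, 53.1 CPM for the YFP-medium and 66.8 CPM for the YFP-high fraction. It was 1.78-fold above YFP-negative in YFP-high (1.70 to 1.87), which missed the rule, and 2.73-fold higher than in parental cells (2.59 to 2.89), which passed it.

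KLF6, a growth-restraining zinc finger factor in several tumour types, had a lower level in each YFP-positive fraction than in the fraction before it. It stood at 80.7 CPM for parental cells, then 78.3 CPM for the YFP-negative, 64.6 CPM for the YFP-low, 36.6 CPM for the YFP-medium and 16.1 CPM for the YFP-high fraction. YFP-negative cells differed from parental cells by less than counting error (fold of 0.970, 0.937 to 1.00), and every YFP-positive fraction lay below both. KLF6 was 2.14-fold lower in YFP-medium than in YFP-negative (2.04 to 2.24) and 4.85-fold lower in YFP-high (4.54 to 5.18). It was called lower in both fractions with either baseline and under every scaling tried.

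From YFP-negative to YFP-high 5 of the 10 factors, EGR1, EGR2, EGR3, JUNB and ATF3, had a higher CPM at each of the 3 steps, and KLF6 a lower one. Without EGR3, which passed the filter through YFP-high alone, 4 of 9 ascended, with the first step of EGR2 within counting error. The same orders held with total counts, DESeq2 size factors and TPM. Over all genes analysed 24.1% ascended and 27.9% descended at each step. FOS, FOSB, FOSL1 and JUN changed course at least once.

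**Figure D2:**
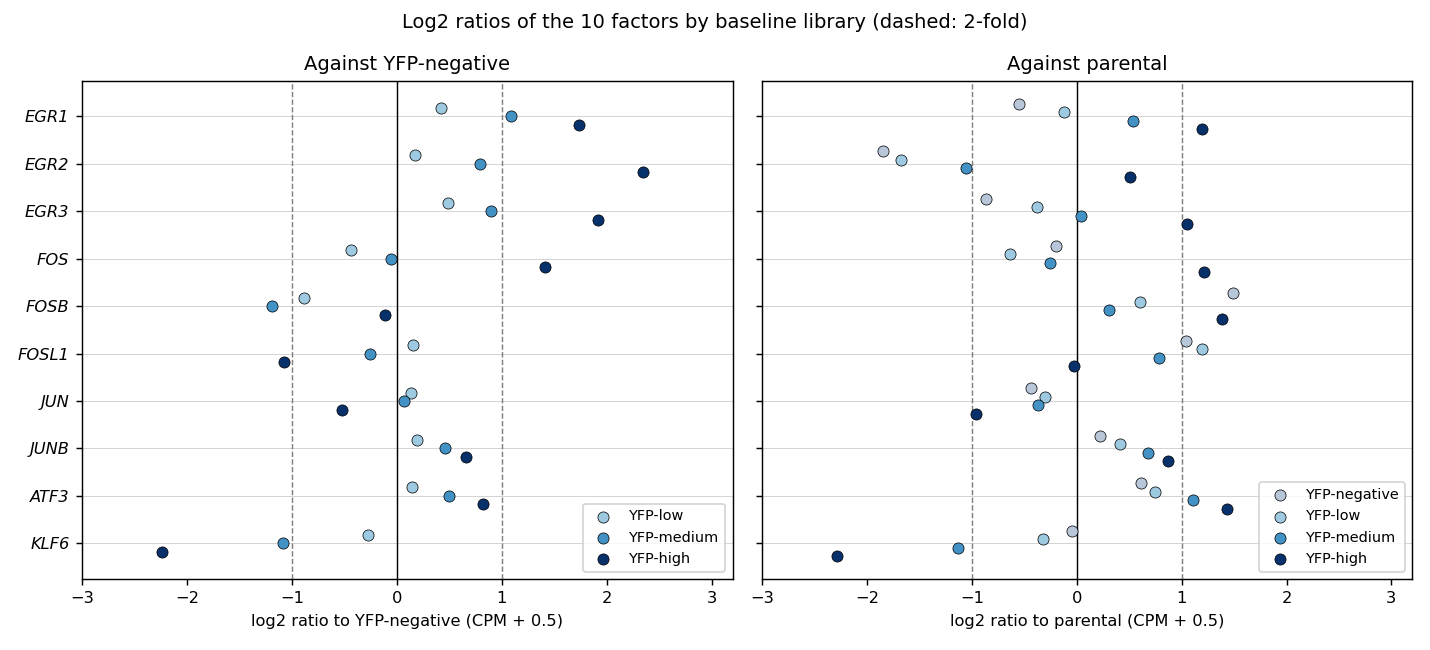
Log2 ratios (CPM with 0.5 added) of the 10 factors against YFP-negative (left) and against parental cells (right), 1 point per library, with dashed lines at 2-fold. EGR2 in YFP-high moves from 2.35 on the left to 0.51 on the right, FOSL1 from -1.07 to -0.03, while KLF6 stays at -2.24 and -2.29.

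Setting the YFP-negative fraction against parental cells shows how far the same factors differed without YFP signal. FOSB was 3.00-fold higher in YFP-negative (2.67 to 3.37) and FOSL1 2.07-fold higher (1.99 to 2.16), while EGR2 was lower as given above. These 2 higher and 1 lower members stand against background shares of 2.15% and 2.93%. For 6 of the 7 others the fold lay between 1.54 (ATF3, 1.45 to 1.63) and 0.683 (EGR1, 0.665 to 0.701). EGR3 had 5 reads against 41, a fold of 0.115 (0.0356 to 0.292) that did not pass the rule on the log2 scale.

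Set against parental cells instead, YFP-high held 5 higher members, EGR1, EGR3, FOS, FOSB and ATF3, and 1 lower, KLF6, against background shares of 21.3% and 14.9%. Without EGR3 4 of 9 were higher. EGR1 was 2.29-fold higher (2.24 to 2.34), FOS 2.33-fold (2.24 to 2.43) and FOSB 2.77-fold (2.45 to 3.13). With total counts 2 higher members, FOSB and ATF3, were left, since EGR1 and FOS had log2 ratios of 0.96 and 0.98, and JUN joined KLF6 on the lower side. In YFP-medium ATF3 was higher, at 2.18-fold (2.06 to 2.30), and EGR2 and KLF6 lower, at 2.27-fold (1.92 to 2.69) and 2.20-fold (2.10 to 2.31), against background shares of 12.3% and 8.29%. The ATF3 log2 ratio of 1.11 became 0.92 with total counts. In YFP-low FOSL1 was higher at 2.30-fold (2.20 to 2.40) and EGR2 lower at 3.85-fold (3.17 to 4.70), against 5.92% and 4.43%. Both baselines are single libraries, and comparisons that share one are not independent.

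Between neighbouring fractions, calls among the 10 factors were made in the last step. In YFP-medium against YFP-low 0 of 10 were called, against background shares of 2.71% higher and 0.185% lower. In YFP-high against YFP-medium EGR2, EGR3, FOS and FOSB were called higher and KLF6 lower, against 9.25% and 1.33%. Without EGR3 3 of 9 were higher. KLF6 was 2.27-fold lower in this step (2.11 to 2.44). EGR3 (2.95-fold, 2.01 to 4.42) lost its call with total counts, at a log2 ratio of 0.95, and with TPM, at 0.78. EGR1 showed a like fold in each of the upper steps, 1.58 for YFP-medium against YFP-low (1.55 to 1.62) and 1.57 for YFP-high against YFP-medium (1.54 to 1.61).

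Within a library the make-up of AP-1 transcripts can be read free of the scaling between libraries. The deposited TPM, which corrects for transcript length, was used for levels between genes. In YFP-high FOS stood at 121 TPM and FOSL1 at 65.1 TPM, a ratio of 1.86 (1.77 to 1.95). FOS stood at 49.3 TPM and FOSL1 at 151 TPM in YFP-negative, a ratio of 0.327 (0.313 to 0.340). For the YFP-low fraction the ratio was 0.216, for the YFP-medium one 0.376 and for parental cells 0.779. FOS transcripts outnumbered those of FOSL1 in YFP-high alone of the 5 libraries.

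The ratio of JUNB to JUN was also highest in YFP-high. It was 1.55 in YFP-high (1.498 to 1.611), at 125 TPM for JUNB and 80.2 TPM for JUN, and 0.683 in YFP-negative (0.660 to 0.707), at 86.3 TPM for JUNB and 126 TPM for JUN. The YFP-low fraction had a ratio of 0.708, the YFP-medium one 0.893 and parental cells 0.432. The sum of JUN and JUNB stayed between 205 and 243 TPM, and the sum of FOS, FOSB and FOSL1 between 130 and 207 TPM. FOSL2 and JUND, named after their values were seen, are the remaining FOS and JUN relatives. FOSL2 had 222 TPM in YFP-high, 135 TPM in YFP-negative and 203 TPM in parental cells, more than FOS in each. JUND had 85.0 TPM in YFP-high, 87.8 TPM in YFP-negative and 150 TPM in parental cells. How far YFP-high differed thus depended on the baseline for both.

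**Figure D3:**
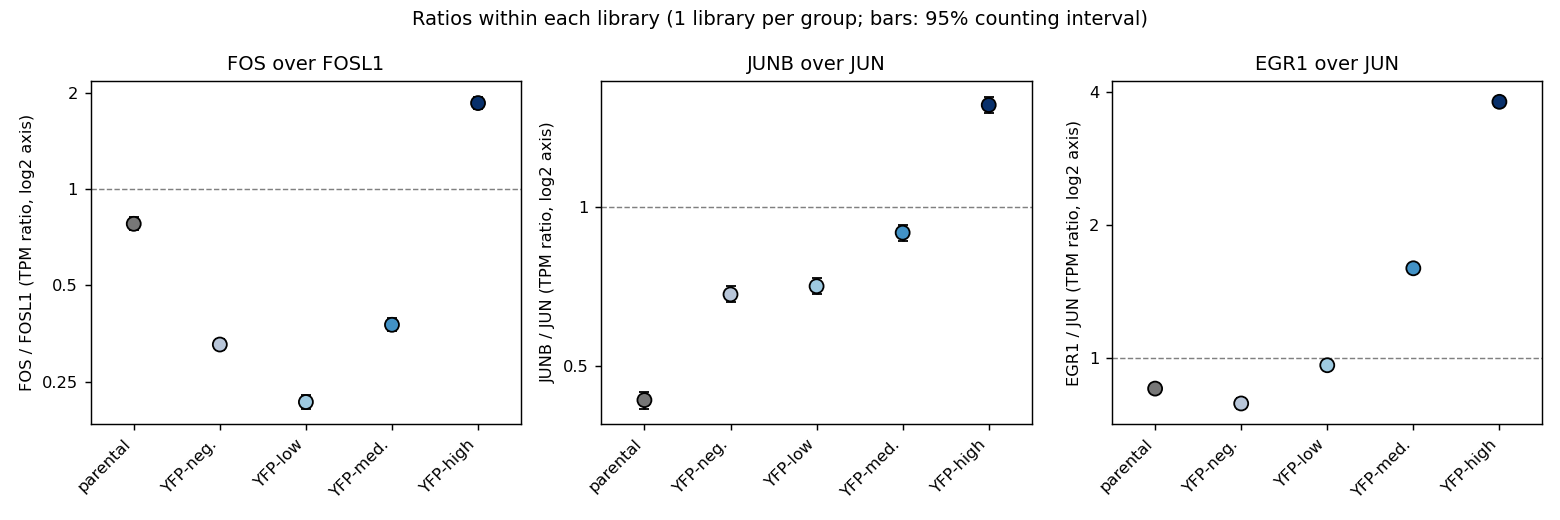
TPM ratios of FOS to FOSL1, JUNB to JUN and EGR1 to JUN within each library, on log2 axes, with 95% counting intervals and a dashed line at 1. All 3 ratios are highest in YFP-high, at 1.86, 1.55 and 3.80, and only there do the first 2 exceed 1.

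The order of transcript levels changed accordingly. In TPM, JUN led in parental cells (170), FOSL1 in YFP-negative (151) and YFP-low (163), and EGR1 in YFP-medium (196) and YFP-high (305). In YFP-high the order after EGR1 was JUNB, FOS, JUN, FOSL1, ATF3, EGR2, KLF6, FOSB and EGR3. The counting intervals of JUNB and FOS overlapped there, as did those of KLF6 (6.43 TPM) and FOSB (5.79 TPM). In YFP-negative the order was FOSL1, JUN, EGR1, JUNB, FOS, KLF6, ATF3, FOSB, EGR2 and EGR3, with no neighbours whose intervals overlapped. EGR3 was lowest in all 5 libraries, at 0.870 TPM or less.

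Genes with the most similar course were sought among 12231 genes with at least 5 CPM in 1 library, by the root mean square difference of log2(CPM + 0.5), centred per gene, over the 5 libraries. This was done for the 8 factors that spanned at least 1 log2 unit. The nearest of so many genes are close by selection, no typical difference was computed, and shared control was not tested. For ATF3 the nearest were FAM83G, FOXN2 and DTNBP1 (0.03 for each), and for EGR1 CASKIN2, OSBPL1A and the ephrin receptor gene EPHB4 (0.05 for each). KLF6 was nearest to MYO10 (0.05), an unconventional myosin, KLF7 (0.07), another Krüppel-like gene, and TNFRSF1A (0.08), a TNF receptor. FOS was nearest to WNK2 (0.07), SPSB3 (0.08) and the neuronal kinesin gene KIF1A (0.11). FOSL1 was nearest to GPR126 (0.07), BC031979 (0.11) and ATG16L2 (0.12). EGR3 was nearest to CELSR2 (0.08), LOC100506394 (0.09) and LRIG3 (0.11), from levels so low that the 0.5 CPM added shapes its course. EGR2 was nearest to EPHB3 (0.14), PRR16 (0.20) and BHLHE41 (0.21). FOSB had the least similar neighbours, DGKG and TNFRSF21 (0.24 for each) and AK055785 (0.30).

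Other immediate early genes were also called in both directions. Of 35 other immediate early genes 34 were analysed. In YFP-high against YFP-negative 12 of them were higher and 7 lower, against background shares of 20.5% and 11.3%, with a median log2 ratio of 0.53. EGR4, the fourth EGR gene, passed the filter through YFP-high alone, at 8.42 CPM against 0.396 CPM in YFP-negative (21.3-fold, 15.0 to 31.2). The nuclear receptor genes NR4A2 and NR4A3 were 11.1-fold (10.2 to 12.1) and 9.92-fold higher (9.20 to 10.7), and TIPARP, a mono-ADP-ribosyltransferase gene, 8.08-fold (7.54 to 8.65). The other higher genes were KLF10, NR4A1, SGK1, PTGS2, ARC, SIK1, NFIL3 and IRF1, and the 7 lower were MYC, DUSP1, CYR61, CTGF, PLK2, RHOB and CSRNP1, all named after their values were seen. With total counts, for which no all-gene share was computed, 12 were higher and 10 lower. Against parental cells 15 were higher and 6 lower, against all-gene shares of 21.3% and 14.9%. Without EGR4 the counts among 33 genes were 11 higher and 7 lower against YFP-negative, and 14 higher and 6 lower against parental cells.

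In this and the following lists, calls in YFP-high against YFP-negative are set against the same all-gene shares of 20.5% higher and 11.3% lower. In the RAS-ERK list 1 of 19 genes was higher (5.26%) and 0 lower. The list's median log2 ratio was 0.42. The higher gene was MAPK3, which encodes ERK1, at 62.4 CPM in YFP-high and 30.3 CPM in YFP-negative (2.06-fold, 1.96 to 2.17). That call ended with total counts and with TPM, where 0 genes of the list were higher and 1 lower. The adaptor gene SHC1 had a log2 ratio of -0.88. Of 14 genes for SRF, its cofactors and the kinases that carry ERK or p38 signals to chromatin, 3 were higher (21.4%) and 2 lower (14.3%), both near the all-gene shares, and the list's median was -0.55. The counts became 3 and 6 with total counts, and 2 and 4 with TPM, settings for which no all-gene share was computed. MKL1, an actin-regulated SRF coactivator, was 2.44-fold lower (2.34 to 2.55), at 44.1 CPM in YFP-high and 108 CPM in YFP-negative. RPS6KA2, a ribosomal S6 kinase gene, was 2.20-fold lower (1.95 to 2.49). RPS6KA3 was 2.80-fold higher (2.71 to 2.89) and RPS6KA5, which encodes the histone kinase MSK1, 3.49-fold higher (3.11 to 3.93). The third higher gene, MYOCD, was named after its values were seen.

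Among partners of the AP-1 and ATF proteins 18 of 20 genes were analysed, and 2 were higher and 2 lower (11.1% each, against 20.5% and 11.3% of all genes). MAF, a large MAF family factor, was 7.89-fold higher in YFP-high than in YFP-negative (7.43 to 8.38) and BATF3, a dimer partner of JUN proteins, 2.75-fold higher (2.50 to 3.03). CREB5, a CRE-binding factor that can pair with JUN, was 4.61-fold lower (4.38 to 4.87) and MAFK, a small MAF gene, 2.13-fold lower (2.07 to 2.20). With total counts and with TPM 2 were higher and 3 lower. The list's median, 0.10, was -0.16 after total-count scaling and -0.03 on the TPM scale. In the group of EGR corepressors and JUN ubiquitin ligases 2 of 6 were higher (33.3%, against 20.5% of all genes) and 0 lower. NAB1, which represses EGR1 and EGR2 activity, was 3.19-fold higher (3.10 to 3.29), and RFWD2, which encodes the ligase COP1, 2.37-fold higher (2.28 to 2.46). With total counts 1 of the 6 was higher. FBXW7, which marks JUN for degradation, and DET1, a COP1 partner, had log2 ratios of 0.62 and -0.56.

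Genes for decay of AU-rich mRNAs, a class to which FOS mRNA belongs, gave 1 higher (7.69%, against 20.5% of all genes) and 0 lower of 13, with a median of 0.39. ZFP36L2, a decay-promoting RNA-binding protein gene, was 2.71-fold higher (2.62 to 2.80). With total counts and with TPM 1 was higher and 1 lower. Its paralog ZFP36L1 had a log2 ratio of -0.88, and the deadenylase genes CNOT6 and CNOT8 0.96 and 0.87. In the rest of the KLF family 12 of 16 genes were analysed, and 3 were higher and 1 lower, at a list median of 0.86. These are 25% and 8.33% of the list, near the all-gene shares of 20.5% and 11.3%. KLF15, not called in this comparison, passed the level filter through YFP-high alone. KLF10, KLF13 and KLF11 were 4.41-fold (4.31 to 4.51), 3.25-fold (3.18 to 3.31) and 2.91-fold higher (2.80 to 3.03). KLF7 was 5.13-fold lower (4.43 to 5.98), at 3.19 CPM in YFP-high and 16.4 CPM in YFP-negative.

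Known targets of both kinds of factor were examined. Of 21 AP-1 targets 17 were analysed, and 0 were higher and 6 lower (35.3%) in YFP-high against YFP-negative, where 20.5% and 11.3% of all genes were called, with a median of -0.47. LIF, a cytokine gene, was 11.8-fold lower (10.8 to 12.9), PLAU, the urokinase gene, 3.68-fold (3.42 to 3.96) and IL8 3.27-fold (3.00 to 3.58). PLAUR, the urokinase receptor gene, and CD44, an adhesion receptor gene, both named with their values known, were also lower. Against parental cells 4 were higher (23.5%) and 2 lower (11.8%), near the all-gene shares of 21.3% and 14.9%, at a list median of 0.02 (-0.22 after total-count scaling, -0.09 on the TPM scale), and IL8 had a log2 ratio of 0.92. Of 11 EGR targets 10 were analysed, and 4 were higher (40%) and 1 lower (10%), against 20.5% and 11.3% of all genes, at a list median of 0.61. PDGFB, a growth factor gene, was 19.1-fold higher (17.1 to 21.5), at 73.7 CPM in YFP-high and 3.86 CPM in YFP-negative. ARC, which also stands in the immediate early list, was 4.19-fold higher (4.05 to 4.34) and F3, the tissue factor gene, 3.74-fold (3.40 to 4.13). BHLHE40, a transcriptional repressor linked to the circadian clock, was 4.63-fold lower (4.35 to 4.92), and PDGFA, named after its values were seen, was the fourth higher gene. Against parental cells 6 EGR targets were higher (60%) and 1 lower (10%), where all genes gave 21.3% and 14.9%, and with TPM 5 were higher. Of the 6, ID3 and FLT1, named after their values were seen, were also called higher in YFP-negative against parental cells. They were not called in YFP-high against YFP-negative. With TPM 1 EGR target was higher in YFP-negative against parental cells.

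**Figure D4:**
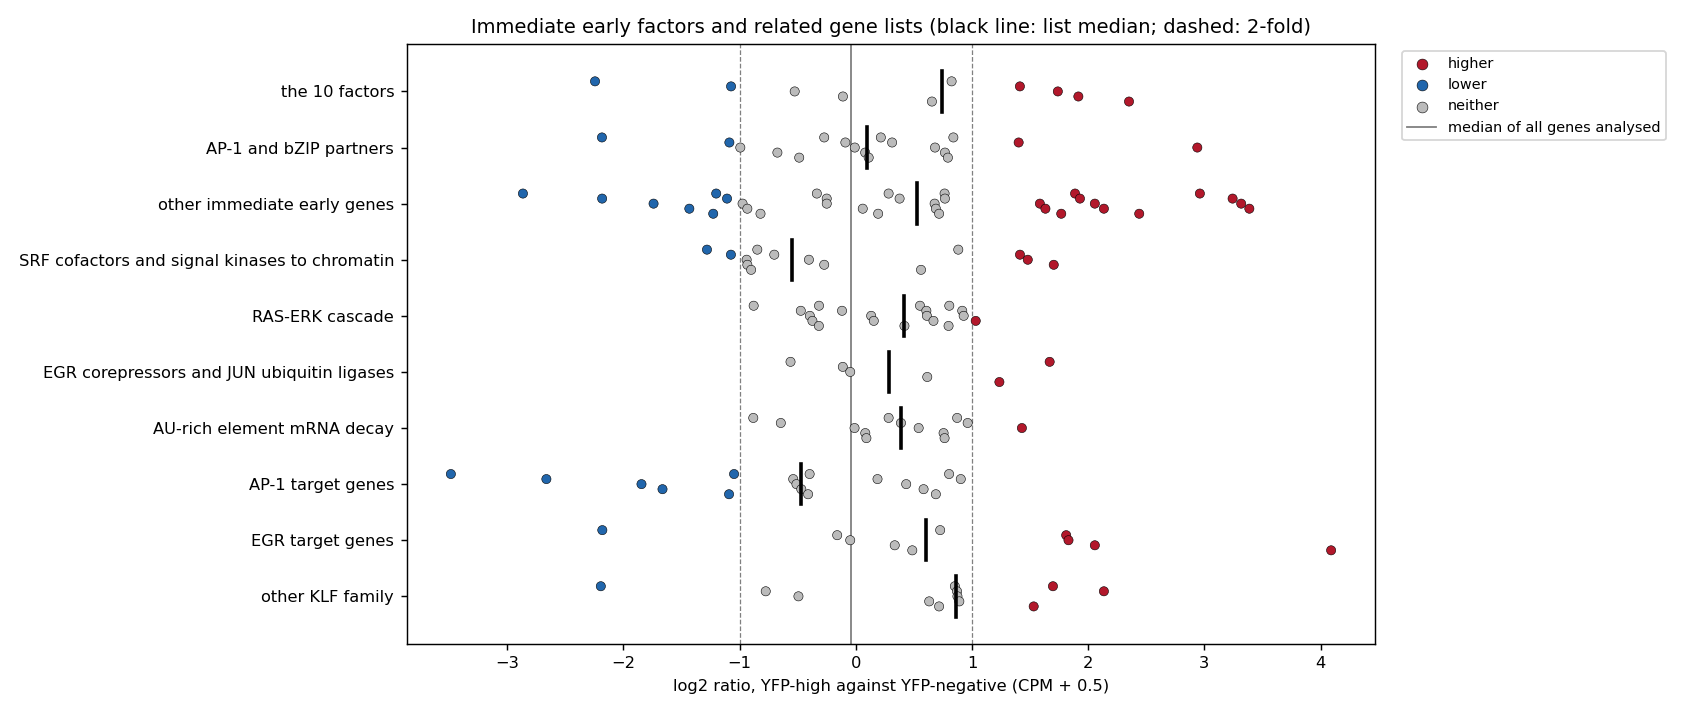
Log2 ratios in YFP-high against YFP-negative (CPM with 0.5 added) of the genes analysed in 10 lists, 1 point per gene, spread vertically for legibility, with list medians as black lines and 2-fold as dashed lines. Points past 2-fold lie on both sides for the 10 factors, whereas AP-1 targets have 6 on the lower side and 0 on the higher side.

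Heat shock genes, which respond to handling of cells as some immediate early genes do, had 1 of 7 analysed genes higher (14.3%, against 20.5% of all genes) in YFP-high against YFP-negative and 0 lower, with a median of -0.37. HSP90AA1 was the higher one, at 2.17-fold (2.16 to 2.19), a call that ended with total counts and with TPM. The log2 ratios of HSPH1, HSPB1 and DNAJB1 were 0.51, -0.69 and -0.47. The summed level of the list was 5748 CPM in YFP-high and 4484 CPM in YFP-negative. HSPA1A is listed at 0 in every library beside its near-identical copy HSPA1B, so reads of this pair are uncertain. The part of sorting and handling in the levels of the 10 factors was not tested.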

How the data were processed

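RNA-seq reads were counted in 5 libraries, 1 per group. The authors deposited raw read counts per gene name, and TPM scaled to 1000000 per library for 24519 gene names. Counting by HTSeq 0.6.0 and alignment by HISAT2 2.0.3 to hg19 are listed in the submitters' processing notes, as are Trimmomatic 0.36, CASAVA 1.8.2 and bcl2fastq. No source used here gives the gene annotation, strand setting or TPM tool. Relative to the parental library, TPM per read lay within 2% of its library's median for at least 99.0% of the 13420 genes with at least 50 reads in every library. HTSeq's 5 classes and a row named unknown (at most 0.00073% of reads) were left out, and gene rows held 75.7% to 77.7% of reads.

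TMM factors (0.904 to 1.09) came from edgeR 4.0.16 under R 4.3.3. Exact 95% intervals of a fold are Clopper-Pearson, conditional on the summed reads of both libraries. With 1 library per group no test was possible, and no pairing exists. The size rule was run on simulated libraries whose planted changes were all larger than 2-fold, in genes of at least 5 CPM on average. That run does not bear on ratios near 2-fold, on genes as rare as EGR3 or on the spread between real replicates. The floor for a count of 0 was 3 reads. Scripts ran under Python 3.11.15 with scipy 1.17.1, pandas 2.3.3, numpy 2.4.6 and matplotlib 3.10.9. RefSeq promoters are on GRCh38.p14 and were matched by symbol.

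Named were all 10 factors, E2F1, up to 4 genes per list with the largest log2 ratio in YFP-high against YFP-negative and at least 5 CPM in 1 of both, and the 3 nearest genes per factor. The factors, the lists and the alternatives were chosen with earlier results of these data known. Some genes that the naming rule selects are not reported here.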

Additional observations from a re-analysis of the deposited data

How the results depend on the processing

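No paired analysis was possible because each group has 1 library. The counts of factors called were within 1.5 times under DESeq2 size factors (DESeq2 1.42.0), no filter and a filter of 5 CPM in all 7 comparisons and both directions. With total counts, YFP-medium against YFP-negative gave 0 higher in place of 1, and YFP-high against parental 2 higher in place of 5 and 2 lower in place of 1. With TPM, those counts were 0 higher for YFP-medium against YFP-negative and 2 lower for YFP-high against parental, and YFP-high against YFP-medium gave 2 higher in place of 4, as it did with a pseudocount of 2 CPM. With the parental baseline, YFP-low gave 1 higher and 1 lower in place of 0 each, and YFP-high 1 lower in place of 2. With a 1.5-fold rule, YFP-low against YFP-negative gave 1 lower, YFP-medium against YFP-negative 3 higher, YFP-medium against YFP-low 2 higher and 1 lower, YFP-high against YFP-medium 3 lower, YFP-negative against parental 2 lower and YFP-high against parental 2 lower. These follow from the looser rule. No all-gene share was computed for the other scalings, TPM, filters, pseudocount or rule, so counts under them stand without one. The cause of the other changes was not tested. Across other scalings, a pseudocount of 2 CPM and TPM, 0 called log2 ratios of the 10 factors changed sign. Uncalled ratios near 0 of JUN, FOSL1 and EGR3 did in 1 comparison each. EGR3, with 5 reads in YFP-negative, is the factor that depth limits most.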
